A study of Mus musculus with 6 samples.

Results

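The microRNAs (miRNAs) described here are those named miR-297, miR-466, miR-467 and miR-669, most of which are cut from a run of hairpins inside an intron of the mouse gene Sfmbt2. They were taken by name alone, every copy and either arm, from a table of mature miRNAs in mouse brain cortex, and they made up 45 of its 1182 rows. Small RNA was sequenced in 6 libraries from whole cortices of untreated adult males, 3 labelled fmr1 KO and 3 labelled fmr1 WT. The animals were siblings matched for age. No strain, allele or exact age is given. The protein made by Fmr1, FMRP, binds messenger RNAs and controls their translation in neurons, and the comparison asks which miRNAs differ in level when it is missing. Fmr1 messenger RNA is not read by this assay, so the genotype labels had no check here.

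Library totals ran from 11182888 to 15733876 miRNA reads. Nothing ties each library to a separate animal, so p-values measure the spread between these libraries. The 6 markers chosen for neurons, led by miR-9-5p, were found in all 6 libraries and summed to between 282151 and 424405 CPM (counts per 1000000 reads, scaled by TMM), the lowest in KO replicate 1 and the highest in KO replicate 2, with WT between 310990 and 341542 CPM. Not all 6 followed this sum. In KO replicate 2 miR-124-3p (1297 CPM) and miR-132-3p (965.1 CPM) were at their lowest of the 6 libraries. Their WT ranges were 1611 to 1830 and 1191 to 1208 CPM. There miR-128-3p, at 105761 CPM, lay within its WT range (99663 to 111894). Markers of other cells moved within the KO group. The choroid plexus list (3 of 3 markers in all 6 libraries) summed to 776.0 and 676.5 CPM in KO replicates 1 and 2, 1636 CPM in KO replicate 3 and, over the WT libraries, between 675.3 and 754.6 CPM. The epithelial and olfactory list (4 of 5 in all 6 libraries) summed to 15.7, 904.3 and 970.1 CPM in KO replicates 1, 2 and 3, where WT ranged from 83.9 to 290.0 CPM. In this list KO replicate 1 was below and KO replicates 2 and 3 were above every WT library, so each KO library lay outside the WT range. The sensory cluster list (3 of 3 in all 6 libraries) had the same order, at 45.9, 1147 and 1026 CPM in KO and 85.3 to 433.9 CPM in WT.

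Sfmbt2 encodes a Polycomb-group protein. In mice it is imprinted and expressed from the paternal copy in the embryo's supporting tissues, where its intron yields one of the largest miRNA clusters of rodents, known for its part in growth of the placenta. A miRNA hairpin is cut into a 5p and a 3p arm, and the arm that is loaded into an Argonaute protein pairs with messenger RNAs mainly through its seed, bases 2 to 8. Copies made by tandem duplication often share a mature sequence, so reads of one copy may not be separable from those of another.

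By name, 4 of the 45 members were matched in the RefSeq table of mature miRNAs (GRCm38.p6), each from a hairpin outside Sfmbt2. They are shown because they carry the repetitive letters of these families at other places in the genome, with the seed in capitals, 5′ to 3′.
miR-466q: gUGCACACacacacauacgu
miR-466k: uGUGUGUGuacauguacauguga
miR-466j: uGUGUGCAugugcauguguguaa
miR-467h: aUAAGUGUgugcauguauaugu
No seed was shared among these 4. G and U made up 73.9% of miR-466j, 69.6% of miR-466k and 68.2% of miR-467h, and 30.0% of miR-466q, which is instead built of alternating A and C. Their mature sequences lie on chromosome 3 (miR-466q at 28419988 to 28420007 and miR-466k at 85467396 to 85467418), chromosome 10 (miR-466j at 60960802 to 60960824) and chromosome 9 (miR-467h at 115381898 to 115381919), all on the plus strand. They had 14, 4, 2 and 1 reads over the 6 libraries, in the order of the sequences shown.

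The annotation (GENCODE M21, GRCm38) placed 82 hairpins of these names, 72 of them inside Sfmbt2 on chromosome 2 (10370510 to 10595253) and 10 elsewhere. All 72 lay in a single intron, from 10461473 to 10523944, which is intron 10 or 11 depending on the transcript, and 0 overlapped an exon of the gene. Of these, 29 were miR-669 hairpins, 24 miR-466, 14 miR-467 and 5 miR-297, within 51.6 kb. In the table, 36 members matched hairpins of this intron only, 5 matched hairpins elsewhere only, 3 rows of miR-466f matched both, and miR-466a-3p matched no hairpin of its own letter. The same intron holds 47 other annotated miRNA genes with provisional Gm names, and 0 rows of the table carry such a name.

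The centre of the cluster was a tandem array. Hairpins of miR-467a and miR-467b, 11 in all, followed each other at 2413 to 2470 bases in 9 of 10 steps. The other step measured 4880 bases and holds several provisional miRNA genes, among them Gm25022 (10500822 to 10500904), and the further named hairpin Mir669a-11 (10501339 to 10501425). Downstream of each of the 11 came a miR-466 hairpin, 282 to 292 bases on, and a miR-669 hairpin, 507 to 518 bases on. Some units hold further miR-669 hairpins, as the first does with Mir669g and Mir669j. The flanks hold copies with names of their own, among them Mir467c upstream and Mir467e, Mir467d, Mir669c and Mir669o downstream.

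**Figure D1:**
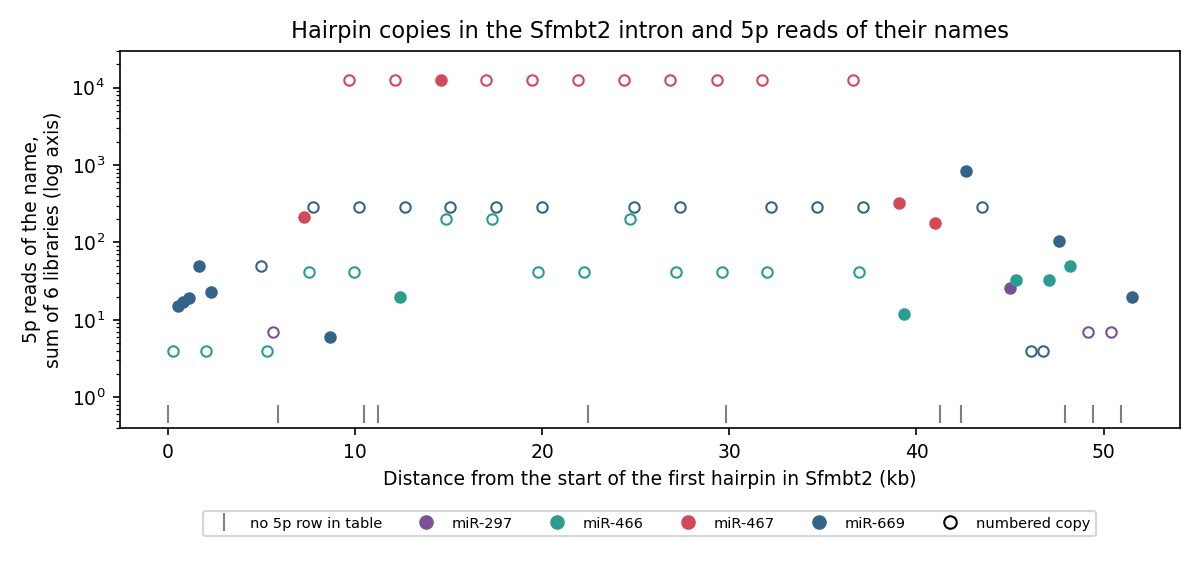
Each point is a hairpin copy in the Sfmbt2 intron, placed by its distance in kb from the start of the first hairpin; the log axis gives 5p reads of its name summed over the 6 libraries, open points are numbered copies that share one row, and grey ticks are hairpins whose name has no 5p row. The miR-467a and miR-467b copies of the array share the top value of 12544 reads, and single-copy hairpins of the right flank reach 826 reads.

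Most of the cluster's reads in cortex came from one mature miRNA. The rows of miR-467a-5p and miR-467b-5p held the same count in every library, 12544 reads in total, and are treated as 1 miRNA, written miR-467a/b-5p. Besides these, 3 more pairs of rows were identical in every library, namely miR-466d-5p with miR-466n-5p, miR-467a-3p with miR-467d-3p, and miR-466f with miR-466f-5p, so the 45 rows held 41 distinct ones. Counting identical rows once, miR-467a/b-5p took 85.7%, 87.3% and 58.4% of the cluster's reads in KO replicates 1, 2 and 3 and 84.3%, 82.0% and 82.1% in WT replicates 1, 2 and 3. It ranked 124 of the 1182 rows by mean level. The next member, miR-669c-5p, ranked 303, and miR-467e-5p ranked 380.

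The order of read totals did not follow the number of genomic copies. With 12 hairpins, miR-669a-5p had 291 reads in total, against 826 for miR-669c-5p with 1 hairpin (10509296 to 10509404). Similarly, miR-466b-5p with 8 hairpins had 41 reads, and miR-466c-5p with 3 had 202. The single-copy miRNAs miR-467e-5p, miR-467c-5p and miR-467d-5p had 321, 215 and 177 reads. Which of its 11 hairpins supply miR-467a/b-5p cannot be read from these counts. The miR-297 family was faint, with miR-297b-5p its most abundant row at 26 reads (3, 11 and 3 in KO and 5, 4 and 0 in WT).

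**Figure D2:**
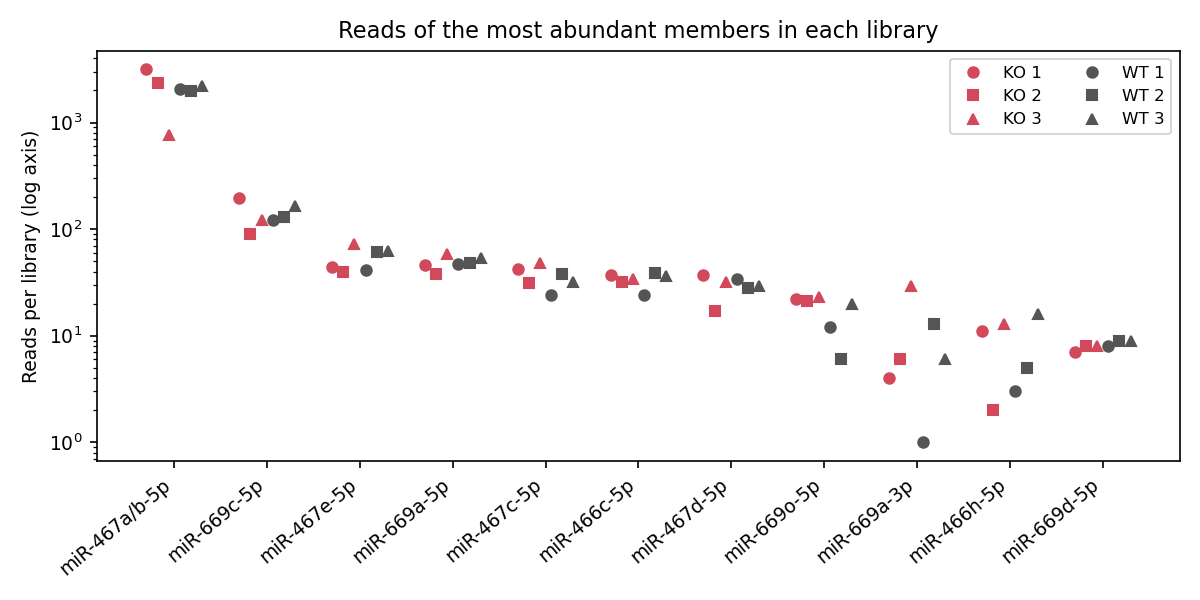
Reads per library (log axis) of the 11 most abundant distinct members, KO libraries in red and WT in grey, with the marker shape giving the replicate number. For miR-467a/b-5p the WT points lie between 1975 and 2211 and the KO points run from 760 to 3150.

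Detection fell off steeply behind these. All 45 members had at least 1 read somewhere, as did all 1182 rows of the table. Some annotated hairpins, such as Mir669g, have no row in it. Of the 45 members, 20 (44.4%) had a read in all 6 libraries. Among all 1182 rows, 673 (56.9%) did. The median member had 20 reads over all libraries, beside 36 for all 1182 rows, and 14 members had fewer than 10. Of the 27 rows for a 5p arm 17 were found in all 6 libraries, and of the 13 for a 3p arm 3 were. The 5 members placed only outside Sfmbt2 were found in all 6 libraries in 0 cases, with summed reads of 4, 0 and 13 in KO and 5, 3 and 3 in WT. A count of 0 still allows up to 3 reads, which is 0.191 to 0.268 RPM (reads per 1000000 of the library total) across these libraries, for counting error only. By comparison, the imprinted miRNA cluster between mir-379 and mir-410 on chromosome 12 (109709060 to 109743795) had 60 of 70 rows in all 6 libraries and a median of 910 reads.

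The 5p arm dominated wherever reads were plentiful. Among 11 hairpin names with rows for both arms, 10 had more 5p than 3p reads in total. The 5p share of miR-467a was between 99.2% and 100% in each library, and that of miR-467e between 95.4% and 100%. For miR-669a it was 92.0%, 86.4% and 66.7% in KO and 97.9%, 78.7% and 90.0% in WT. The low value of KO replicate 3 came with 29 reads of miR-669a-3p, the most abundant 3p row, which had 4 and 6 in the other KO libraries and 1, 13 and 6 in WT. Among hairpins with at most 50 reads of either arm the 5p share of all reads varied, from 40% for miR-466f (4 and 6 reads) and 55.3% for miR-297b (26 and 21) to 79.4% for miR-466h (50 and 13) and 82.5% for miR-466d (33 and 7). At these counts the share of a single library was imprecise, and that of miR-297b ran from 0% to 100%.

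No member passed the test for a difference between KO and WT cortex over all 6 libraries. The count filter left 541 miRNAs for the edgeR quasi-likelihood test. Of these 10 were member rows, 9 of them distinct, since miR-467a/b-5p has 2 rows. At an adjusted p below 0.05, 0 of the 10 passed, where the share over all tested miRNAs was 0%. At an unadjusted p under 0.05 there was 1 of 10, beside 6.47% of all tested (35 of 541). For 1 of 10 the 2 genotypes had no overlap in CPM, beside 15.7% of all tested. Fitted values were higher in KO for 10 of 10, beside 52.5% of all tested, with a median log2 fold change of 0.16 against 0.03 over all tested. The direction was not stable, since limma-voom gave 8 of 10 higher (49.7% of all tested), and without KO replicate 3 edgeR gave 6 of 10 (53.9%). The other 35 members had too few reads to be tested. In whole cortex, fewer cells of a type and less RNA per cell cannot be told apart.

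The main member, miR-467a/b-5p, was even in WT and uneven in KO. It had 3150, 2368 and 760 reads in KO replicates 1, 2 and 3, or 215.0, 199.2 and 62.6 CPM. The WT libraries had 2080, 1975 and 2211 reads, or 136.3, 145.4 and 145.4 CPM. KO replicates 1 and 2 were thus above every WT library, at 1.51 and 1.40 times the WT mean, and KO replicate 3 was below every one, at 0.44 times. Mean CPM was 158.9 ± 83.8 for KO against 142.4 ± 5.24 for WT (SD, n = 3 per genotype). The fitted log2 fold change came to 0.16 (SE 0.40, 95% interval -0.77 to 1.08, edgeR adjusted p = 0.894). Without KO replicate 3 it was 0.56 and passed the threshold (edgeR adjusted p = 0.0227, higher in 2 of 2 KO libraries), in a fit where 18 of 560 miRNAs, 3.21%, were called. The 18 include both rows of miR-467a/b-5p. Without KO replicate 1 or KO replicate 2 the log2 fold change was -0.11 in both cases. KO replicate 3 was also the library with the raised choroid plexus markers. The summed epithelial and olfactory list and the summed sensory list were raised in KO replicates 2 and 3. The microglia and leukocyte list was above WT in every KO library as a sum (186.0 to 202.3 against 159.1 to 170.1 CPM). Its members did not all follow. In KO replicate 3 miR-146a-5p was below every WT library (62.6 against 78.3 to 81.8 CPM). So was miR-150-5p in KO replicate 2 (68.2 against 75.3 to 90.1 CPM). The part of these in the result was not tested.

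This spread was wide for KO and narrow for WT. On the log2 scale the SD of miR-467a/b-5p was 0.997 in KO and 0.05 in WT, where the median over all tested miRNAs was 0.41 and 0.14. Its SD in KO was reached or passed by 50 of the 541 tested rows, a count that includes both of its own rows. KO replicate 3 was at or below 0.44 times the WT mean for 40 tested rows, and it was the lowest of the 6 libraries for 208 (38.4%). The order seen here, with KO replicates 1 and 2 above and KO replicate 3 below every WT library, occurred in 45 of 541 rows.

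The rest of the cluster did not follow miR-467a/b-5p. Ratios within a library do not depend on how libraries are scaled, and the reads of miR-467a/b-5p over those of its neighbour miR-467e-5p were 71.6, 59.2 and 10.4 in KO and 50.7, 32.4 and 35.7 in WT. Over miR-669a-5p, most of whose hairpins lie within the same array, the ratio was 68.5, 62.3 and 13.1 in KO and 44.3, 41.2 and 40.9 in WT. Over all other member reads together it was 6, 6.90 and 1.40 in KO and 5.39, 4.55 and 4.59 in WT. For each of the 6 members compared in the plot of ratios, KO replicate 3 gave the lowest value. Across the 6 libraries, which share their depth and scaling, the correlation of log2 CPM with miR-467a/b-5p was -0.91 for miR-669a-5p, -0.77 for miR-467e-5p and 0.05 for miR-669c-5p, given as a description. KO replicate 3 was the lowest library for miR-467a/b-5p and the highest for miR-669a-5p and miR-467e-5p, so the negative values lean on that library.

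**Figure D3:**
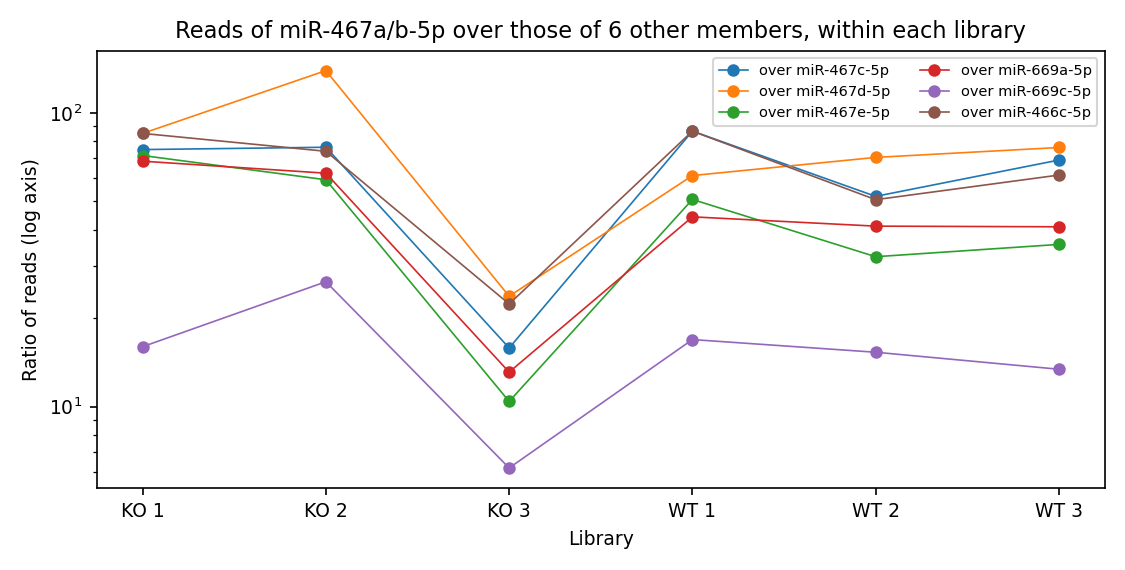
Reads of miR-467a/b-5p divided by those of 6 other members within each library (log axis), with lines joining one member's ratios. Every line is lowest at KO replicate 3, for example 10.4 over miR-467e-5p against 32.4 to 71.6 in the other 5 libraries.

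The other miR-467 members had far fewer reads and did not pass. The reads of miR-467e-5p (10505721 to 10505807) were 44, 40 and 73 in KO and 41, 61 and 62 in WT, and the groups overlapped. Mean CPM was 4.13 ± 1.65 for KO and 3.75 ± 0.945 for WT (SD, n = 3 per genotype), with a fitted log2 difference of 0.14 (SE 0.35). For miR-467c-5p (10473931 to 10474027) the reads were 42, 31 and 48 in KO and 24, 38 and 32 in WT, and in CPM 1 WT library fell inside the KO range. Mean CPM of 3.14 ± 0.716 and 2.16 ± 0.614 (SD, n = 3 per genotype) gave a log2 difference of 0.54 (SE 0.32, 95% interval -0.20 to 1.28, edgeR adjusted p = 0.749). For miR-467d-5p (10507630 to 10507714) they were 37, 17 and 32 in KO and 34, 28 and 29 in WT. The fitted log2 difference was 0.09 (SE 0.33), smaller than its error.

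Among miR-669 members, miR-669o-5p (10514300 to 10514395) came nearest to a difference. It had 22, 21 and 23 reads in KO and 12, 6 and 20 in WT, and every KO library was above every WT library in CPM (1.502, 1.77 and 1.90 against 0.787, 0.442 and 1.32). The log2 difference was 0.999 (SE 0.43, 95% interval 0.02 to 1.98), and it did not pass (edgeR adjusted p = 0.747). The exact 95% Poisson intervals of its WT counts, for counting error only and at unequal depths, were 6.20 to 21.0, 2.20 to 13.1 and 12.2 to 30.9 reads. Those of its KO counts were 13.8 to 33.3, 13.0 to 32.1 and 14.6 to 34.5 reads. The most abundant member of the family, miR-669c-5p, had 197, 89 and 123 reads in KO and 123, 129 and 165 in WT, and KO replicates 1 and 2 were its highest and lowest library. Mean CPM of 10.4 ± 2.99 and 9.47 ± 1.40 (SD, n = 3 per genotype) gave a log2 difference of 0.13 (SE 0.27). For miR-669a-5p the reads were 46, 38 and 58 in KO and 47, 48 and 54 in WT, and the log2 difference was 0.13 (SE 0.27). The reads of miR-669d-5p, too faint to be tested, were nearly even, with 7, 8 and 8 reads in KO and 8, 9 and 9 in WT.

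Of the miR-466 family, 2 rows reached the test. The reads of miR-466c-5p were 37, 32 and 34 in KO and 24, 39 and 36 in WT, and the log2 difference was 0.24 (SE 0.31, 95% interval -0.47 to 0.94). The KO libraries lay within the WT range. For miR-466h-5p (10514891 to 10514971) the reads were 11, 2 and 13 in KO and 3, 5 and 16 in WT. It varied by several times within each genotype, and its log2 fold change of 0.30 (SE 0.75) had an interval from -1.41 to 2.003. The smallest adjusted p over the 10 tested rows was 0.747 and the largest 0.925 (edgeR).

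**Figure D4:**
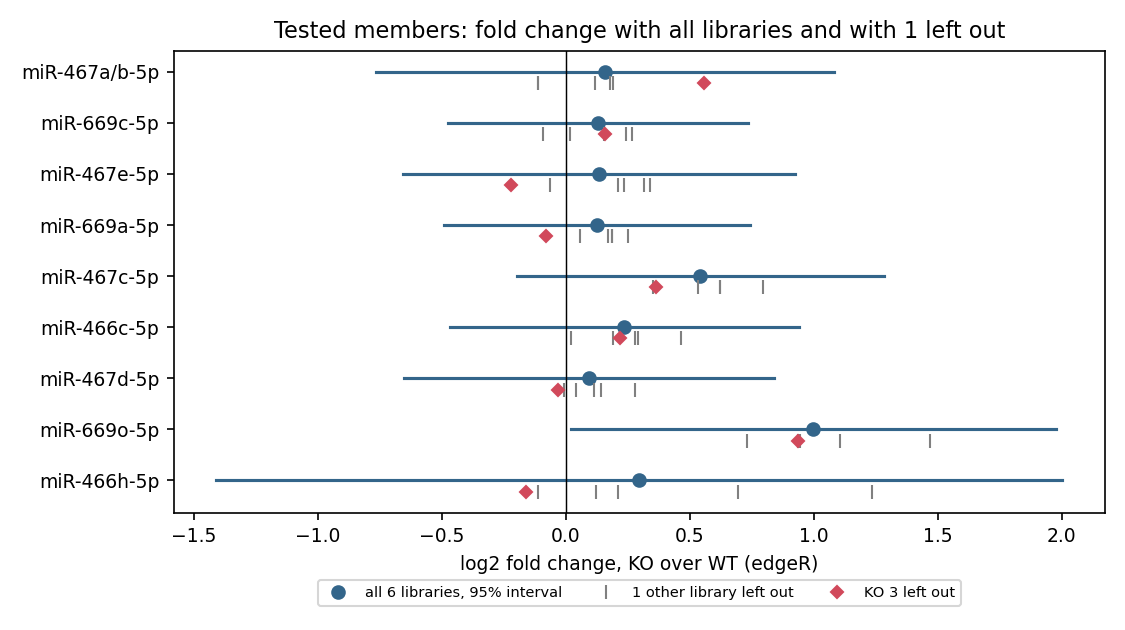
Log2 fold change of KO over WT for the 9 distinct tested members (blue points, 95% interval as line, edgeR), with the value after leaving out KO replicate 3 (red diamonds) or another library (grey ticks) below each. Only the interval of miR-669o-5p lies clear of 0, from 0.02 to 1.98, and the red diamond of miR-467a/b-5p sits at 0.56.

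More of the faint members were found in KO libraries. The number of members with at least 1 read was 36, 34 and 42 in KO and 32, 33 and 32 in WT, and the groups did not overlap. The whole table went the other way in its means, with 905, 875 and 900 rows detected in KO and 914, 886 and 909 in WT. When every library was thinned to 11182888 reads the counts were 34, 31 and 42 in KO and 30, 31 and 31 in WT, so that KO replicate 2 met the WT range. With a minimum of 5 reads they overlapped, at 18, 13 and 23 in KO and 17, 18 and 15 in WT. KO replicate 3 gave the highest share of reads for 10 of 20 distinct members with 10 to 100 reads in total (50%), and for 66 of 281 other rows in that range (23.5%). Fitted without the count filter, 38 of 45 members had higher values in KO, beside 55.4% of all rows, and 2 of 45 had an unadjusted p under 0.05, beside 4.74% (edgeR). Without KO replicate 3 as well, the values were higher for 24 of 43, beside 50% of all rows.

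Summed over the cluster, the level did not separate the genotypes. All rows together, identical rows included, gave 509.6, 353.6 and 185.8 RPM in KO and 307.2, 332.6 and 312.1 in WT, and the KO mean was 1.10 times that of WT. That ratio was 1.36 without KO replicate 3 and 0.850 without KO replicate 1. Without miR-467a/b-5p, and with identical rows counted once, the sum was 39.1, 23.8 and 48.5 RPM in KO and 26.0, 32.8 and 30.6 in WT. KO replicate 3 was thus the lowest library for the whole sum and the highest for the sum without its main member. The miR-669 rows summed to 21.9, 12.5 and 24.3 in KO and 14.3, 16.5 and 17.2 in WT, and the miR-466 rows to 6.85, 3.82 and 9.03 in KO and 4.65, 5.52 and 4.58 in WT.

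The miRNAs outside the cluster whose pattern over the 6 libraries was most like that of its sum were miR-130b-5p, miR-3074-1-3p, miR-1191a, miR-344d-3p and miR-340-3p. Pearson's r of log2 CPM was between 0.9825 and 0.9966 over 6 libraries that share depth and scaling, and these 5 were picked as the highest of 531. The closest, miR-130b-5p, stood at 19.4, 15.8 and 6.51 CPM in the KO libraries against 10.8, 12.2 and 12.5 CPM in the WT libraries. For miR-344d-3p the KO libraries had 314.2, 273.0 and 107.2 CPM and the WT libraries 205.5, 188.1 and 206.1 CPM. Both were above every WT library in KO replicates 1 and 2 and below every one in KO replicate 3, as was the cluster's main member.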

How the data were processed

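Small RNA of 6 cortex libraries (3 KO, 3 WT) was taken from 1 deposited table. Per the file headers it holds read counts per mature miRNA, not normalized, and TPM values. The authors' TPM equals the count divided by the library total on a common scale (largest deviation 4.9e-10) and was not used further. Per the submitters' processing notes, Bowtie, DESeq2 and the build mm10 were involved. The miRBase release, mismatches, strand and the treatment of reads matching several places are not stated in these sources, so near-identical members may share reads.

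Counts were fitted in R 4.3.3 with edgeR 4.0.16 (TMM factors 0.8265 to 1.092, filterByExpr with a minimum count of 10, robust quasi-likelihood test, Benjamini-Hochberg adjustment over 541 miRNAs). CPM values are on the TMM scale, and RPM values are reads per 1000000 of the library total. DESeq2 1.42.0, limma-voom (limma 3.58.1), other scalings and filters, identical rows counted once and each library left out were alternatives. The procedure was run on simulated counts with the same dispersion in both genotypes. That run does not cover the wider spread of the KO libraries seen here. Named members were the 12 most abundant, the 6 with the smallest p, and the most abundant of each family, arm and placement. The members and lists were chosen with earlier results of these data known. Replicate numbers follow accession order. There were 0 value columns of no sample.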

Additional observations from a re-analysis of the deposited data

How the results depend on the processing

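With all 6 libraries, 0 miRNAs passed at an adjusted p under 0.05 under each scaling, filter and tool tried (edgeR 35, DESeq2 38 and limma-voom 33 of 541 at an unadjusted p under 0.05). Over left-out libraries the count of calls ran from 0 to 18, the 18 arising without KO replicate 3, and the count of members at an unadjusted p under 0.05 from 0 to 2. These 2 are the identical rows of miR-467a/b-5p without KO replicate 3, thus 1 miRNA, and the 18 calls include both rows. Without the count filter 2 of 45 members had an unadjusted p under 0.05. The members' median log2 fold change was then 0.564, against 0.16 with the filter, and more members of few reads enter it. Without the filter and without KO replicate 3, an alternative chosen after seeing the data, there were 25 calls over all miRNAs, 4 members at an unadjusted p under 0.05, a median of 0.1235 and 0.5529 for miR-467a/b-5p (edgeR adjusted p = 0.0128). The 25 calls and the 4 members each include both rows of miR-467a/b-5p. Members found in all 6 libraries numbered 20, 18 after thinning, 10 with at least 5 reads and 8 with at least 10.

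The sign of the log2 fold change turned for miR-467a/b-5p with limma-voom (-0.0258) and, over left-out libraries, ran from -0.1117 (without KO replicate 1; -0.1098 without KO replicate 2) to 0.556. Over left-out libraries the values also turned for miR-669c-5p (-0.0897 without KO replicate 1, up to 0.268), miR-467d-5p (-0.0325 without KO replicate 3 and -0.00663 without KO replicate 1, up to 0.278), miR-467e-5p (-0.220 without KO replicate 3 and -0.0618 without WT replicate 1, up to 0.339), miR-669a-5p (-0.0811 without KO replicate 3, up to 0.250) and miR-466h-5p (-0.160 without KO replicate 3 and -0.113 without WT replicate 1, up to 1.235). Without the filter and without KO replicate 3, miR-467e-5p, miR-669a-5p, miR-467d-5p and miR-466h-5p were at -0.223, -0.0841, -0.0353 and -0.174. The cause was not tested. The KO over WT ratio of the summed level ran from 0.850 (without KO replicate 1) to 1.36 (without KO replicate 3) over the alternatives, so its direction was not stable. These moves were smaller than the spread between libraries, which is wide because of the KO group. No paired analysis was possible because the replicate numbers follow accession order and tie no KO library to a WT library. Rows with few reads are limited by depth: 8 reads have an exact 95% Poisson interval of 3.45 to 15.8.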

Other observations

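Among members too faint for the count filter, miR-466a-3p and miR-466b-3p had more reads in KO, with values seen before they were chosen. The former had 9, 3 and 5 reads in KO and 1, 2 and 1 in WT, and the latter 9, 4 and 5 in KO and 3, 2 and 1 in WT. Without the filter their log2 fold changes were 2.15 and 1.70, and neither passed (edgeR adjusted p = 0.793 for both, over 1182 rows). Their counts are nearly the same in every library, so these are not 2 separate pieces of evidence.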
